A study of Mus musculus with 6 samples.

Results

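The 10 genes described here, H2-K1, H2-D1, B2m, Tap1, Tap2, Tapbp, Psmb8, Psmb9, Psmb10 and Psme1, encode the machinery that makes peptides and loads them onto MHC class I molecules. They were taken as a named set, chosen with earlier results of these data known. They were found in the tables by NCBI gene identifier, without use of their measured values. All 10 were found among 17254 genes with a count in some library, and all 10 passed a filter on low values (a mean FPKM of at least 1 over the 6 libraries), which left 11717 genes for testing. FPKM is a level scaled for transcript length and library total.

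MHC class I molecules display peptides of intracellular proteins at the cell surface, where CD8 T cells inspect them. The immunoproteasome and its PA28 activator cut proteins into peptides, the TAP transporter carries the peptides into the endoplasmic reticulum, and tapasin helps to load them onto a heavy chain paired with beta-2-microglobulin. Cells of the nervous system are known for low class I expression, which interferons raise.

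RNA was sequenced from cultured mouse neural progenitor cells after 48 h, with 2 control libraries, 2 libraries of cells given 5 µM paraquat (PQ), a redox-cycling herbicide, and 2 of cells given 5 mM N-acetylcysteine (NAC), a thiol antioxidant. The comparisons ask how an oxidant and an antioxidant change expression in these progenitors. The labels of control 1 and PQ 1 give the strain C57BL/6, the genotype Ink/Ark knockout and Illumina libraries, and those of control 2, PQ 2, NAC 1 and NAC 2 give no strain or genotype and name BGISEQ-500. The methods of the study describe an immortalized Ink/Arf-deficient culture from neonates, a mixed population, as the source, so the controls share that deletion with the treated cells and all were kept outside the brain. All cells were grown in N2 medium with EGF and bFGF. The expected counts, which share reads between genes and need not be whole, summed to 9849392 in control 1, 10040827 in control 2, 10388731 in PQ 1, 9680436 in PQ 2, 10698241 in NAC 1 and 9907726 in NAC 2. The sources do not tie the 2 libraries of a group to separate cultures beyond a statement of replication, so p-values measure only the spread between these libraries, which may be technical. Both NAC libraries carry the BGISEQ-500 label, so no comparison with NAC can be made within the Illumina label.

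In level, B2m stood far above the other 9 genes. Its mean FPKM over the 6 libraries was 663.6, and only 77 of the genes tested were higher. The heavy chain genes H2-K1 and H2-D1 followed at mean FPKM values of 94.2 and 74.1, and Psme1, a PA28 subunit, at 41.0. Tapbp (tapasin) and Psmb10 stood side by side at mean FPKM values of 17.8 and 17.6, and their ranges over the libraries (14.1 to 23.2 and 13.0 to 24.1) overlapped. Tap2, Tap1 and Psmb8 came next at mean FPKM values of 10.8, 9.16 and 8.59, again with overlapping ranges. Psmb9 was lowest at 4.81, with 9100 of the genes tested above it.

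Fractional counts marked 5 of the 10 genes. An expected count is fractional where reads fit more than 1 gene and are divided between them. H2-K1, H2-D1, Tap1, Tap2 and Tapbp had a fractional count in some library, a share of 50% against 23.2% (2718 of 11717) of the genes tested. In all 6 libraries, 4 of the 10 genes did so, beside 1836 of the 11717 genes tested. Tapbp was whole in PQ 1, and B2m, Psmb8, Psmb9, Psmb10 and Psme1 were whole in all 6 libraries, with a tolerance of 1e-06. Tap1 and Tap2, which encode the paired chains of the transporter, were fractional in a matched way. Their counts added to whole numbers within 0.011 in all 6 libraries, namely 492 and 478 in control, 753 and 572 in PQ, and 490 and 492 in NAC. No other gene among the 4272 searched completed either of them. No single gene completed H2-K1, H2-D1 or Tapbp.

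In PQ against control, 4 of the 10 genes rose and 0 fell, whereas 9.76% of all genes tested rose and 9.45% fell. B2m, Tap1, Tapbp and Psme1 rose, by 1.32- to 1.53-fold. The median log2 fold change of the 10 genes was 0.27, against -0.001 over all genes tested, and the values ran from 0.10 to 0.62. For the 0 that fell, edgeR gave 0 with an unadjusted p under 0.05 as well, and DESeq2 and limma also gave 0. The count rested in part on PQ 1, as did the number of calls over all genes tested. Without PQ 1, Tap1, Tapbp and Psme1 lost their calls, and B2m did not. The log2 fold change then moved from 0.62 to 0.40 for Tap1 and from 0.42 to 0.28 for Tapbp. That of Psme1 moved from 0.40 to 0.44, and that of B2m from 0.46 to 0.47. Tap1, Psme1, B2m and Psmb8 are also in an interferon list that the study drew from these libraries, so their direction is not independent evidence. In bulk RNA, a change in the share of cells expressing a gene and a change in RNA per cell cannot be told apart.

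In NAC against control, 1 of the 10 genes rose (Psmb10) and 2 fell (H2-K1 and H2-D1), beside 9.01% of all genes tested that rose and 9.64% that fell. The median log2 fold change was -0.05, against -0.002 over all genes, and the values ran from -0.47 for Psmb8 to 0.48 for Psmb10. Without NAC 1, neither heavy chain gene passed the test, and 1286 genes passed in all in place of 2186. Without control 1, PQ 1, PQ 2 or NAC 2, Psmb10 did not pass.

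In PQ against NAC, 7 of the 10 genes were higher in PQ and 0 lower, beside 16.0% of all genes tested that were higher and 15.7% that were lower. The 7 were H2-K1, H2-D1, B2m, Tap1, Tapbp, Psmb8 and Psme1, and the median log2 fold change of the 10 was 0.43, against 0.000 over all genes. For the 0 lower, edgeR gave 0 at an unadjusted p under 0.05 too, and DESeq2 and limma also gave 0. Without NAC 1 the count was 4 (H2-D1, B2m, Tap1 and Psmb8), and 2407 genes passed in all in place of 3708. Without PQ 1 the count was 6, with 2343 genes in all. The first and second comparisons share the control libraries, and the third shares its libraries with both, so the 3 sets of values are given side by side and not as separate support.

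**Figure D1:**
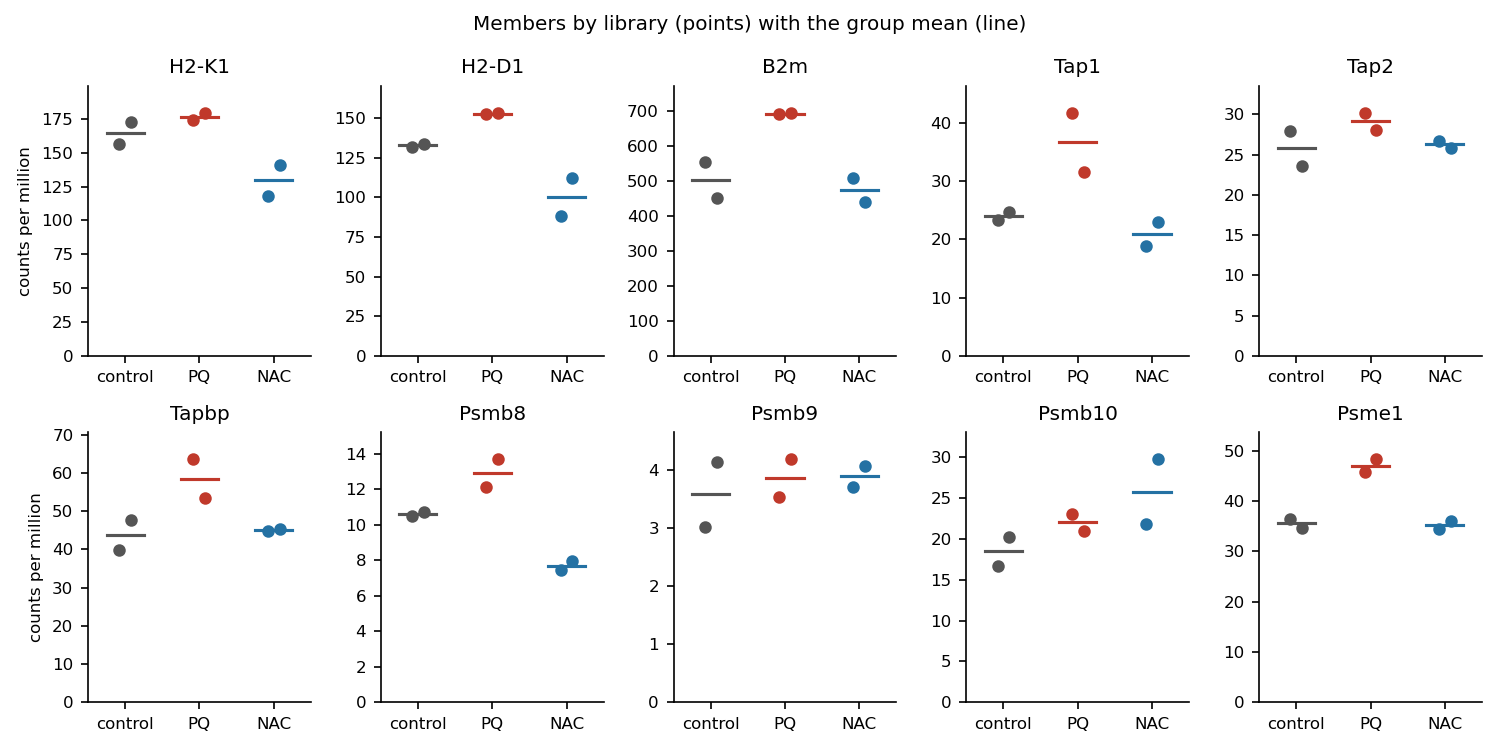
Normalized count (CPM, the count scaled to a common library total) of each gene in each library, with a panel per gene, a point per library and a line at the mean of the 2 libraries of a group; each vertical axis starts at 0. B2m is at 689.7 and 693.5 in PQ against 553.7 and 449.9 in control. For H2-K1 the lower PQ library, at 173.9, lies close to the higher control library, at 172.5.

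**Figure D2:**
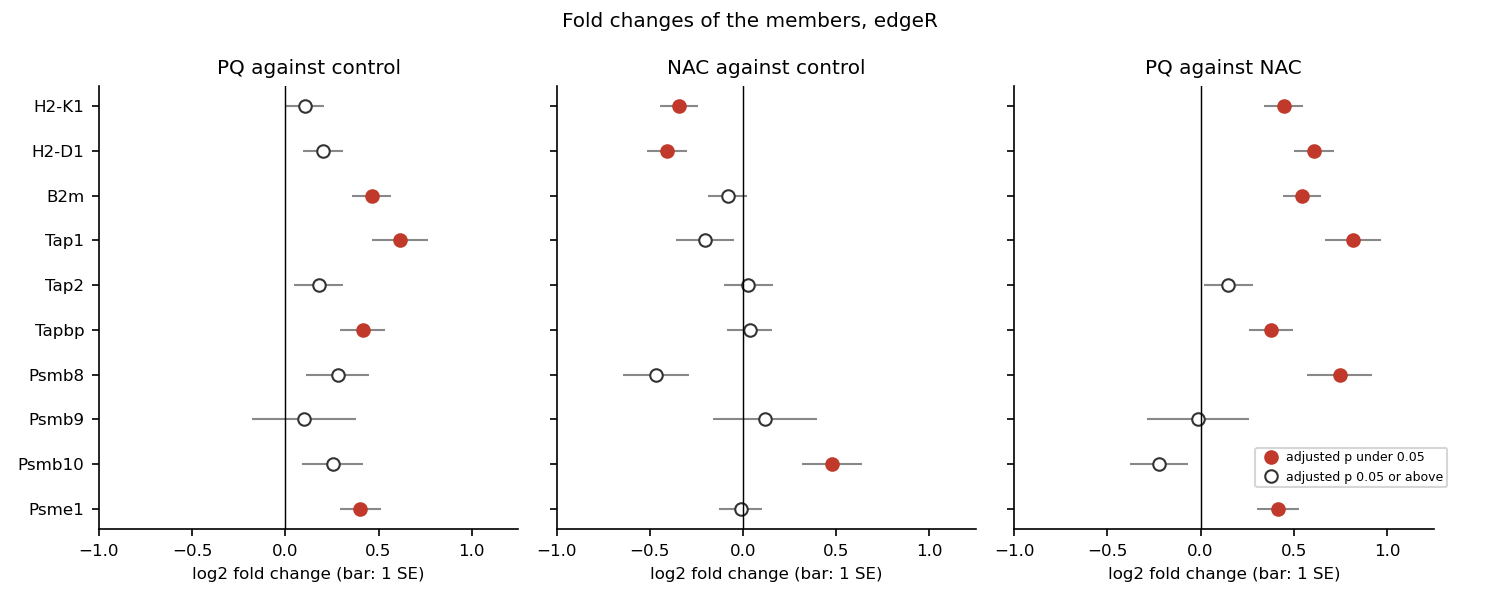
Log2 fold change of each gene (horizontal axis, bar of 1 standard error) in PQ against control, NAC against control and PQ against NAC, with filled points for an adjusted p under 0.05 in edgeR. Filled points number 4, 3 and 7 in the 3 panels, and the furthest from 0 is Tap1 in PQ against NAC at 0.82.

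The heavy chain genes encode the chain that holds the peptide. H2-K1 was at 156.1 and 172.5 CPM in control, 173.9 and 179.3 in PQ, and 118.2 and 141.1 in NAC. The groups did not overlap, with NAC lowest and PQ highest, although PQ 1 lay only slightly above control 2. H2-K1 fell in NAC against control with a log2 fold change of -0.34 (SE 0.10, adjusted p = 0.026 by edgeR). It was higher in PQ than in NAC by 0.45 on the log2 scale (SE 0.10, edgeR adjusted p = 0.0027), and PQ against control gave 0.10 (SE 0.10, edgeR adjusted p = 0.54). The NAC call ended without control 2 (edgeR adjusted p = 0.11), without NAC 1 (0.29) and in a fit blocked on inferred sets of libraries (0.055), namely control 1, PQ 1 and NAC 2 against the other 3. The higher value in PQ than in NAC lost its call without NAC 1 (edgeR adjusted p = 0.071), and limma on log2(FPKM + 1) gave an adjusted p of 0.096 for NAC against control.

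H2-D1 was at 131.9 and 133.7 CPM in control, 152.2 and 153.1 in PQ, and 88.1 and 112.1 in NAC. The libraries of control and of PQ lay close together within each group, and NAC 1 was the lowest library. H2-D1 fell in NAC against control by 0.41 on the log2 scale (SE 0.11, edgeR adjusted p = 0.012), a call lost without NAC 1 (edgeR adjusted p = 0.23) and in limma on log2(FPKM + 1) (0.064). In PQ against NAC the log2 fold change was 0.61 (SE 0.11, edgeR adjusted p = 2.8e-04), and it passed the test whichever library was left out. PQ against control gave 0.20 (SE 0.11, edgeR adjusted p = 0.21). The FPKM ratio of H2-K1 to H2-D1 was 1.23 and 1.34 in control, 1.19 and 1.22 in PQ, and 1.40 and 1.31 in NAC.

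Promoters are shown for H2-K1 and H2-D1 because these genes moved together and both had fractional counts. The promoter entries at hand, from RefSeq (GRCm38.p6, from C57BL/6J), covered 9 of the 10 genes, all but Tap2, with 2 entries for H2-K1. The 250 bases before each start were searched on both strands for 3 short motifs. The ISRE-type motif GAAANNGAAA (bound by interferon regulatory factors) occurred in 2.98% of all 32851 promoters of that length, the GAS-type motif TTCNNNGAA (a gamma-activated site) in 7.02%, and the kB-type motif GGGNNTTCC (bound by NF-kB) in 4.98%. The motifs do not overlap in the sequences printed. The kB-type motif, in capitals, was found in both heavy chain promoters, and the exact letters of the other motifs were not.
H2-K1 (chr17:34000348-34000597, minus strand): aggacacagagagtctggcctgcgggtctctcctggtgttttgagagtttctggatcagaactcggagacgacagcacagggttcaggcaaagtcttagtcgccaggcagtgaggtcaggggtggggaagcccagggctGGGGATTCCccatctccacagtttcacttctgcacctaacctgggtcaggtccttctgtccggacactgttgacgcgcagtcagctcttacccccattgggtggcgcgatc
H2-D1 (chr17:35262844-35263093, plus strand): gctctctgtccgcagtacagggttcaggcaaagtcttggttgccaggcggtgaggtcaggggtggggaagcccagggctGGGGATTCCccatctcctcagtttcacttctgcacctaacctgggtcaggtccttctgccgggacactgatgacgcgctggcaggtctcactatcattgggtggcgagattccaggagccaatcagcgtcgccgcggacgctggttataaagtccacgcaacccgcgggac
In the first entry of H2-K1 the motif lies 111 to 103 bases before the start, and in H2-D1 171 to 163 bases before it, both times as GGGGATTCC. In an alignment, 170 of 250 bases were identical (68%), and the longest identical run, of 47 bases, holds the motif. A match describes letters and is not evidence of binding. The motifs searched are strict, so a missing match does not show that a promoter lacks a site of that type.

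The heavy chain counts are uncertain, since their fractions show that some reads were divided, with genes that were not identified. The tables list 20 class I heavy chain genes with symbols of the H2-K, D, Q, T, M and Bl series, of which 19 had a fractional count in some library and 10 passed the filter. H2-K1 and H2-D1 together took 60.2% and 61.3% of the summed family count in control, 59.8% and 61.4% in PQ, and 49.2% and 54.6% in NAC. The share was thus lower in both NAC libraries than in any other. H2-Q4, a Qa-region class I gene, was at 102.1 and 101.1 CPM in control, 122.1 and 114.0 in PQ, and 126.0 and 119.5 in NAC, and did not pass the test in NAC against control (log2 fold change 0.27, SE 0.10, edgeR adjusted p = 0.052). H2-T10 took the next place in count, between 9.97 and 14.1% of the family, and had log2 fold changes of 0.04 and 0.06 against control. Whether the lower H2-K1 and H2-D1 and the higher H2-Q4 values in NAC reflect a different division of shared reads was not tested.

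Summed over the 20 genes, a value that does not depend on the division among them, the heavy chains reached 478.7 and 499.9 CPM in control, 545.4 and 541.6 in PQ, and 419.8 and 463.6 in NAC. PQ was above control and NAC below in all libraries, but neither difference from control passed the test: log2 fold changes were 0.15 (SE 0.09, edgeR adjusted p = 0.26) and -0.15 (SE 0.09, edgeR adjusted p = 0.28). PQ exceeded NAC by 0.30 on the log2 scale (SE 0.09, edgeR adjusted p = 0.015). This call was lost without PQ 1, PQ 2 or NAC 1, where the log2 fold changes were 0.296, 0.304 and 0.229. The family sum lay 0.12 to 0.45 from a whole number in 5 libraries, beyond the 0.10 that rounding of 20 values can make, and 0.03 in NAC 2, so reads may also be shared with genes outside it. Another 5 class I entries, 2 of them with H2-K1 as a RefSeq synonym and all chosen after the values were seen, added 4.69 to 6.56% to the sum and left the log2 fold changes at 0.15, -0.14 and 0.29.

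**Figure D3:**
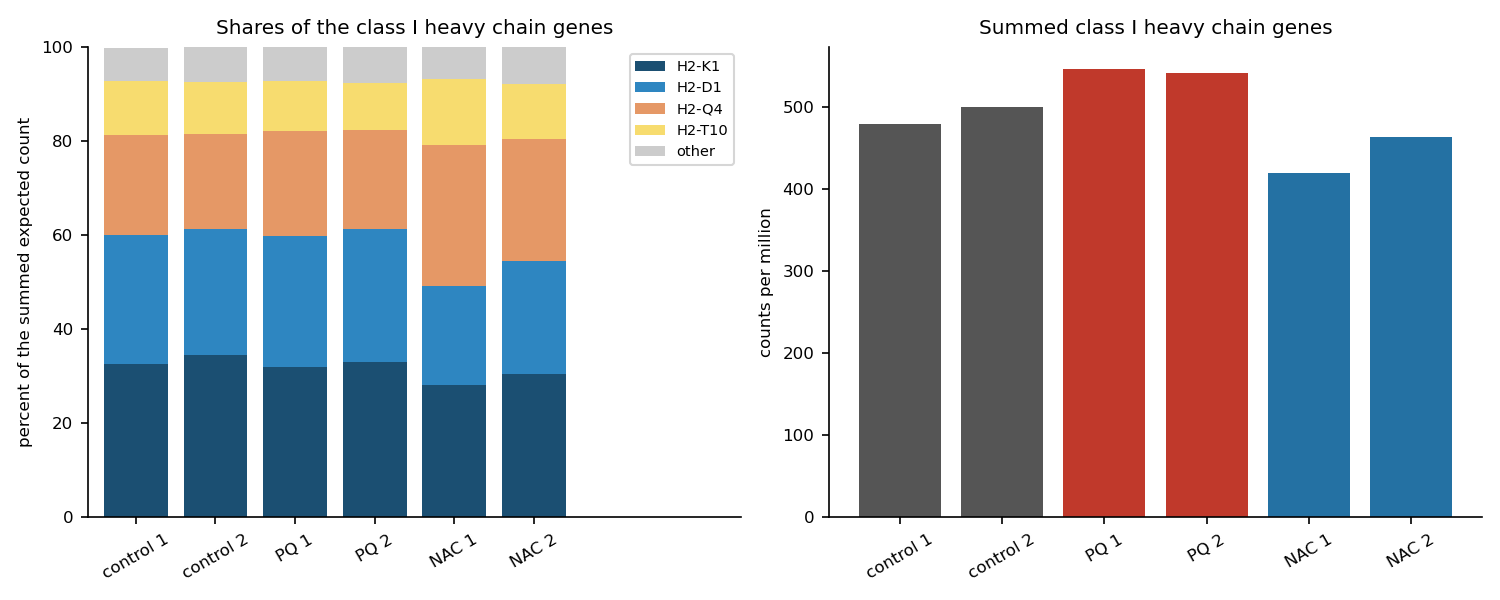
Left, share of the summed expected count of the 20 class I heavy chain genes taken by H2-K1, H2-D1, H2-Q4, H2-T10 and the others in each library; right, their sum in CPM per library, from 0. H2-K1 and H2-D1 together take 49.2 and 54.6% in NAC and 59.8 to 61.4% elsewhere, and the sum is highest in PQ at 545.4 and 541.6 CPM.

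B2m encodes beta-2-microglobulin, the light chain that every classical class I molecule needs. It was at 553.7 and 449.9 CPM in control, 689.7 and 693.5 in PQ, and 506.9 and 440.8 in NAC. The PQ libraries were nearly equal and above all others, and the NAC and control libraries overlapped. B2m rose in PQ against control by 1.38-fold (log2 fold change 0.46, SE 0.10, edgeR adjusted p = 0.0041) and was higher in PQ than in NAC (log2 fold change 0.55, SE 0.10, edgeR adjusted p = 5.3e-04). Both calls held whichever library was left out, with log2 fold changes of 0.32 to 0.62 and 0.45 to 0.65. NAC against control gave -0.08 (edgeR adjusted p = 0.64). As a whole-number count in every library, B2m carries no sign of shared reads.

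The B2m promoter is shown because it was the only one of the 9 to match the ISRE-type letters, in capitals, 139 to 130 bases before the start.
B2m (chr2:122147437-122147686, plus strand): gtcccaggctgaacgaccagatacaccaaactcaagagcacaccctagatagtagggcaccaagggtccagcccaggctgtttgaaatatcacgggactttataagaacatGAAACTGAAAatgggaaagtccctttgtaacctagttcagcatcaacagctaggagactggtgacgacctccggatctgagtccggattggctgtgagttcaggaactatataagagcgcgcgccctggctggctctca
The kB-type and GAS-type letters were not in this window.

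Tap1 and Tap2 encode the chains of the transporter. Tap1 was at 23.3 and 24.7 CPM in control, 41.7 and 31.6 in PQ, and 18.9 and 22.9 in NAC. Both PQ libraries were above all others, and PQ 1 stood above PQ 2. Tap1 rose in PQ against control by 1.53-fold (log2 fold change 0.62, SE 0.15, edgeR adjusted p = 0.0068) and was higher in PQ than in NAC (log2 fold change 0.82, SE 0.15, edgeR adjusted p = 3.6e-04). Without PQ 1 the first value was 0.40 and did not pass (edgeR adjusted p = 0.19), while the second, 0.60, still passed. Tap2 was at 27.9 and 23.7 CPM in control, 30.2 and 28.1 in PQ, and 26.7 and 25.9 in NAC. Its PQ libraries were highest by a small margin, and no comparison passed (log2 fold changes 0.18, 0.03 and 0.15, edgeR adjusted p = 0.39, 0.91 and 0.42). The difference between Tap1 and Tap2 in response was not tested. Since the counts of Tap1 and Tap2 complete each other, some reads were divided between them, and an error in that division would move them in opposite directions.

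Tapbp, or tapasin, bridges the transporter and the empty heavy chain. It was at 39.9 and 47.8 CPM in control, 63.5 and 53.4 in PQ, and 44.8 and 45.2 in NAC. PQ was above both other groups, PQ 1 most of all, and the NAC libraries lay between the controls. Tapbp rose in PQ against control (log2 fold change 0.42, SE 0.12, edgeR adjusted p = 0.020) and was higher in PQ than in NAC (0.38, SE 0.12, edgeR adjusted p = 0.020). These calls were fragile. The first was lost without control 1 (log2 fold change 0.291) and without PQ 1 (0.284). It was also lost in limma on log2(FPKM + 1) (0.418, limma adjusted p = 0.051). The second was lost without PQ 1 (log2 fold change 0.247), NAC 1 (0.371) or NAC 2 (0.386). With the labelled protocol as a covariate it was lost too (0.376, edgeR adjusted p = 0.057), as in limma on log2(FPKM + 1) (0.335, limma adjusted p = 0.072).

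By position, 7 of the 10 genes lie on chromosome 17, in the mouse MHC, and 4 of them stand side by side there in the order Psmb9, Tap1, Psmb8 and Tap2, with 0 other genes between them. Psmb9 and Tap1 start 225 bases apart and run in opposite directions, so they share an upstream stretch. It is shown because Tap1 rose in PQ against control and Psmb9 did not pass the test (log2 fold change 0.10, SE 0.28). The difference in response between these genes was not tested.
Psmb9 to Tap1 (chr17:34187331-34187555, plus strand): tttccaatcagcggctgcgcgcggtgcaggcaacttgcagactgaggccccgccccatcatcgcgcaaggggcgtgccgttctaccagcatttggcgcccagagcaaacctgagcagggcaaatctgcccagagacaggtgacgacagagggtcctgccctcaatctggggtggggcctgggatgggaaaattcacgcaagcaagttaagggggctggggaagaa
None of the 3 motifs occurs in it, so no letter is in capitals. Psmb8 held the GAS-type motif 97 to 89 bases before its start, the only one of the 9 promoters that did.

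The immunoproteasome subunits Psmb8, Psmb9 and Psmb10 replace the catalytic subunits Psmb5, Psmb6 and Psmb7 of the standard proteasome. Psmb8 was at 10.5 and 10.7 CPM in control, 12.1 and 13.7 in PQ, and 7.43 and 7.94 in NAC. The 3 groups did not overlap. Psmb8 was higher in PQ than in NAC by 1.68-fold (log2 fold change 0.75, SE 0.17, edgeR adjusted p = 0.0028), and this held whichever library was left out, at 0.66 to 0.83. Against control, the values were 0.28 in PQ (SE 0.17, edgeR adjusted p = 0.27) and -0.47 in NAC (SE 0.18, edgeR adjusted p = 0.078), and the NAC value passed in limma on log2(FPKM + 1) (adjusted p = 0.041). Psmb9 was at 3.02 and 4.14 CPM in control, 3.53 and 4.18 in PQ, and 3.71 and 4.07 in NAC. All 3 groups overlapped, and the log2 fold changes of 0.10, 0.12 and -0.02 had standard errors near 0.28, so a moderate difference was not detectable at this depth. Psmb10 was at 16.7 and 20.2 CPM in control, 23.01 and 20.99 in PQ, and 21.8 and 29.7 in NAC. Both treated groups were above control, and NAC 2 was the highest library. Psmb10 rose in NAC against control (log2 fold change 0.48, SE 0.16, edgeR adjusted p = 0.046), but DESeq2 gave an adjusted p of 0.10, and leaving out control 1, PQ 1, PQ 2 or NAC 2 gave edgeR adjusted p-values of 0.22, 0.058, 0.057 and 0.46. In PQ against control Psmb10 gave 0.26 (edgeR adjusted p = 0.31).

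Set against the standard subunits by FPKM, the immunoproteasome subunits were minor. The ratio of Psmb8 to Psmb5 was 0.191 and 0.197 in control, 0.221 and 0.275 in PQ, and 0.166 and 0.170 in NAC. PQ was thus highest and NAC lowest for this pair, with no overlap. Psmb9 stood at 0.0346 and 0.0483 of Psmb6 in control, 0.0450 and 0.0516 in PQ, and 0.0515 and 0.0543 in NAC. Psmb10 stood at 0.0779 and 0.112 of Psmb7 in control, 0.115 and 0.1 in PQ, and 0.126 and 0.169 in NAC, highest in NAC. These ratios are descriptions and were not tested.

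Psme1 encodes the alpha subunit of PA28, which opens the proteasome. It was at 36.4 and 34.7 CPM in control, 45.7 and 48.3 in PQ, and 34.5 and 36.0 in NAC. The PQ libraries stood apart from the other 4, which overlapped. Psme1 rose in PQ against control (log2 fold change 0.40, SE 0.11, edgeR adjusted p = 0.016) and was higher in PQ than in NAC (0.42, SE 0.11, edgeR adjusted p = 0.0075). The first call was lost without control 2 (log2 fold change 0.37), PQ 1 (0.44) or PQ 2 (0.36). The second was lost without PQ 2 (0.377) or NAC 1 (0.384). Its partner Psme2 was at 26.0 and 24.6 CPM in control, 34.1 and 32.8 in PQ, and 24.5 and 29.1 in NAC, and rose in PQ against control (log2 fold change 0.40, SE 0.13, edgeR adjusted p = 0.036). DESeq2 gave Psme2 an adjusted p of 0.096, and the edgeR call was lost without either control or either PQ library. The FPKM ratio of Psme1 to Psme2 was 1.29 and 1.31 in control, 1.24 and 1.36 in PQ, and 1.30 and 1.15 in NAC.

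**Figure D4:**
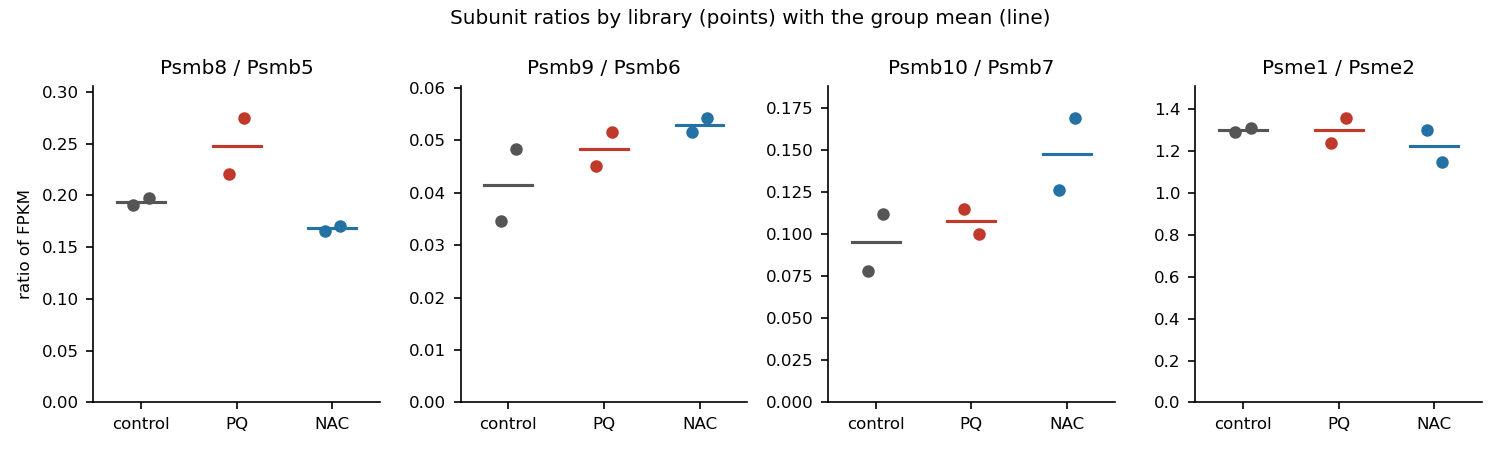
Ratio of FPKM values (vertical axis, from 0) of an immunoproteasome subunit to the standard subunit it replaces, and of Psme1 to Psme2, with a point per library and a line at the group mean. The ratio of Psmb8 to Psmb5 is 0.221 and 0.275 in PQ and 0.166 and 0.170 in NAC, whereas that of Psme1 to Psme2 lies between 1.15 and 1.36 in every library.

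Other genes of the pathway were examined as lists. Of 7 proteasome counterparts, activators and assembly factors, 1 rose in PQ against control (Psme2) and 1 was higher in PQ than in NAC (Psme4, log2 fold change 0.45, SE 0.10, edgeR adjusted p = 0.0014). For NAC against control edgeR called 0 of them, 3 were lower at an unadjusted p under 0.05, and DESeq2 and limma called 0. The 3 standard catalytic subunits passed in no comparison. Of 7 genes that load and trim peptides in the endoplasmic reticulum, Calr (calreticulin, a chaperone) rose in PQ against control (log2 fold change 0.37, SE 0.09, edgeR adjusted p = 0.0065) and in NAC against control (0.32, SE 0.09, edgeR adjusted p = 0.017). The PQ call for Calr was lost without PQ 1, and the NAC call without control 1 or NAC 1. Erap1, an aminopeptidase that trims peptides to length, was at 50.5 and 46.2 CPM in control, 48.1 and 49.4 in PQ, and 77.5 and 67.4 in NAC. Only its NAC libraries were high, and Erap1 rose in NAC against control (log2 fold change 0.58, SE 0.11, edgeR adjusted p = 6.9e-04) and was lower in PQ than in NAC (-0.57, SE 0.11, edgeR adjusted p = 4.8e-04), both whichever library was left out. Of 6 cytosolic peptidases, Thop1, which degrades peptides, fell in PQ against control (log2 fold change -0.37, SE 0.10, edgeR adjusted p = 0.016), a call lost without PQ 1 or PQ 2, and Nrd1 was higher in PQ than in NAC (0.28, SE 0.10, edgeR adjusted p = 0.046), a call lost without PQ 1, PQ 2 or NAC 2. DESeq2 and limma called 0 of the 6 higher in PQ than in NAC. For NAC against control 0 of the 6 passed in edgeR, DESeq2 or limma, also at an unadjusted p under 0.05.

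Among 21 other heavy chain and class I-like genes, 9 passed the filter. In PQ against control 3 rose and 0 fell. The NAC comparison with control had 0 called by edgeR, with 2 higher and 1 lower at an unadjusted p under 0.05, DESeq2 called 0 and limma called 1 higher. The 3 that rose in PQ were Cd1d1, which presents lipids (log2 fold change 0.51, SE 0.17, edgeR adjusted p = 0.040), Mr1, which presents microbial metabolites (0.32, SE 0.10, 0.037), and Fcgrt, the neonatal Fc receptor (0.63, SE 0.18, 0.016). All 3 pair with beta-2-microglobulin. DESeq2 gave these genes adjusted p-values of 0.14, 0.090 and 0.055. The calls also depended on single libraries: without PQ 1, 0 of the 3 passed, Cd1d1 did not pass without control 1, control 2 or PQ 2, Mr1 passed only without control 1, and Fcgrt did not pass without control 2. In PQ against NAC 2 of the 9 were higher and 0 lower, Mr1 (log2 fold change 0.61, SE 0.10, edgeR adjusted p = 1.9e-04), which passed whichever library was left out, and Cd1d1 (0.54, SE 0.17, edgeR adjusted p = 0.019), a call lost without PQ 1, PQ 2 or NAC 1 and in DESeq2 (adjusted p = 0.075).

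Regulators of class I genes were examined as a list. Irf1, Irf9, Stat2 and Rela rose in PQ against control and Rfxap fell, Irf1 and Nfkb1 rose in NAC against control, and in PQ against NAC Irf9 and Stat2 were higher and Rfxap and Nfkb1 lower. Of those last 4 calls, those of Irf9 and Stat2 were lost without PQ 1 or NAC 1, that of Rfxap without PQ 1, PQ 2 or NAC 2, and that of Nfkb1 without PQ 2, with a borderline value without NAC 2 (edgeR adjusted p = 0.050). The Nfkb1 call in NAC against control was lost without control 1, NAC 1 or NAC 2. DESeq2 called at most 1 of Irf1 and Nfkb1 higher in that comparison. Irf1, an early interferon regulatory factor, was at 35.7 and 35.9 CPM in control, 56.3 and 47.4 in PQ, and 56.2 and 60.1 in NAC. Irf1 rose in PQ (log2 fold change 0.54, SE 0.12, edgeR adjusted p = 0.0030) and in NAC (0.70, SE 0.11, edgeR adjusted p = 2.1e-04). The PQ calls of Irf1, Irf9, Stat2 and Rela were lost without PQ 1, and that of Rela also without control 1. Rfxap, part of the RFX complex that binds class I promoters, gave -0.39 in PQ against control (SE 0.14, edgeR adjusted p = 0.049), and passed in only 1 of 6 fits that left out a library. Neither DESeq2 nor limma called Rfxap lower in that comparison. Irf8, with at most 16 counts, passed only in the fit with no filter, in NAC against control, a call lost without control 2 or NAC 1.

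Nlrc5, the transactivator of class I genes, lay below the filter and is described because of its role, after its values were seen. Its counts were 38 and 25 in control, 105 and 78 in PQ, and 45 and 48 in NAC. Both PQ libraries were above the other 4. The adjusted p-values of Nlrc5 come from a fit with no filter and do not share the scale of the main fit. For B2m in PQ against control, the edgeR adjusted p was 2.1e-05 with no filter and 0.0041 in the main fit. Among 17209 genes tested with no filter, Nlrc5 rose in PQ against control (log2 fold change 1.49, SE 0.24, edgeR adjusted p = 2.0e-08) and was higher in PQ than in NAC (1.02, SE 0.22, edgeR adjusted p = 4.1e-05). NAC against control gave 0.46 (SE 0.26, edgeR adjusted p = 0.27). The first value lay between 1.20 and 1.82 when a library was left out and passed each time.

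**Figure D5:**
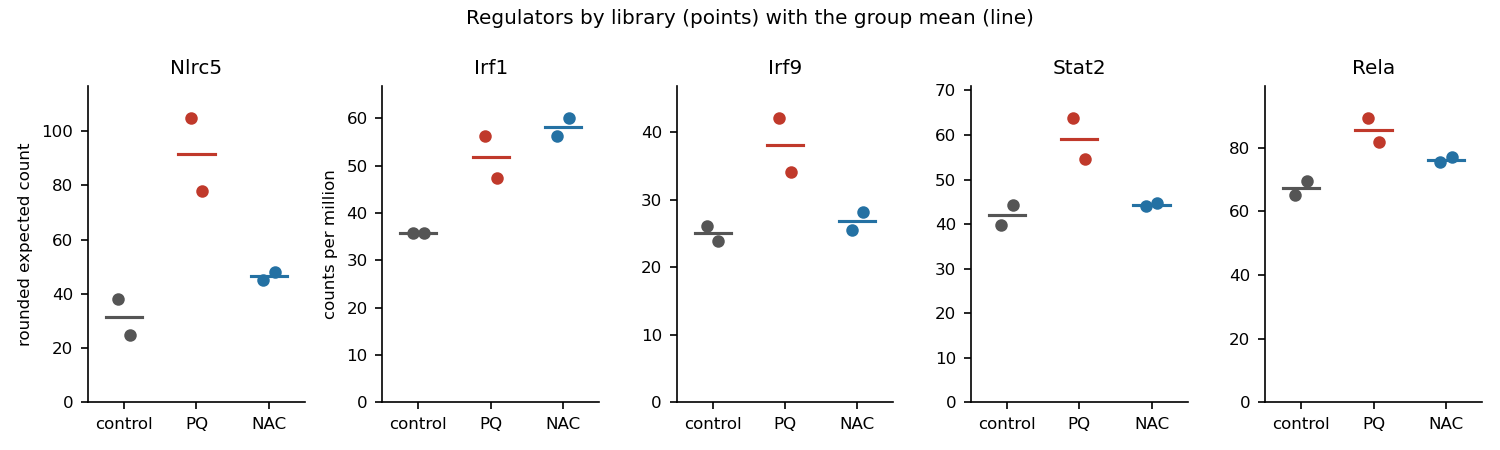
Rounded expected count of Nlrc5 and CPM of Irf1, Irf9, Stat2 and Rela in each library, with a point per library and a line at the group mean; each vertical axis starts at 0. Nlrc5 is at 105 and 78 in PQ against 25 to 48 in the other libraries, and Irf1 is as high in NAC (56.2 and 60.1 CPM) as in PQ.

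The markers of the labelled cell type were present. Among neural stem and progenitor markers, Vim was the most abundant, and Prom1 had at most 4 counts in a library. Nes rose in PQ against control while Sox2 and Slc1a3 fell, and in NAC against control Slc1a3 rose and Nes, Sox2 and Vim fell. Of these calls, those of Nes, Sox2 and Slc1a3 in NAC passed in 0, 3 and 1 of the 6 fits that left out a library, and those of Nes and Sox2 in PQ were lost without PQ 1 or PQ 2, that of Sox2 also without control 1. Of 5 astrocyte markers, 1 rose in PQ (Aldh1l1) and 3 rose in NAC (Gfap, Aqp4 and Aldoc), with summed FPKM values of 46.2 and 51.2 in control, 49.5 and 52.7 in PQ, and 106.2 and 106.9 in NAC. Aldoc was the most abundant of them, and the PQ call of Aldh1l1 was lost without PQ 1. Of 5 oligodendrocyte progenitor markers, 3 passed the filter, of which 0 passed the test in PQ (1 lower at an unadjusted p under 0.05 in edgeR, 0 in DESeq2 and in limma) and 2 rose in NAC (Olig1 and Pdgfra, both lost without control 1 or NAC 2), with Olig1 the most abundant and Sox10 at 1 count at most. Their summed FPKM values were 650.8 and 752.3 in control, 767 and 664.9 in PQ, and 814.5 and 924 in NAC. Of 5 neuronal precursor markers only Map2 passed the filter, and it rose in NAC. Tubb3, with 41 and 23 counts in control, 13 and 8 in PQ, and 6 and 8 in NAC, lay below it. In the fit with no filter Tubb3 fell in NAC (log2 fold change -2.27, SE 0.46, edgeR adjusted p = 1.7e-05), whichever library was left out, and in PQ (-1.645, SE 0.43, edgeR adjusted p = 0.0016), a call lost without control 1 or PQ 2. Summed FPKM values of the 5, with Map2 the most abundant, were 38.0 and 35.7 in control, 33.5 and 34.7 in PQ, and 65.3 and 58.5 in NAC. In PQ against NAC, Nes, Vim and Aldh1l1 were higher, with Vim at a log2 fold change of 0.94. Pax6, Egfr, Slc1a3, Map2, Olig2, Pdgfra, Gfap, Aqp4 and Aldoc were lower there, with Aldoc at -1.10. The Pax6 call was lost without PQ 1, PQ 2 or NAC 1, and that of Olig2 without PQ 2, NAC 1 or NAC 2. Thus marker levels of several cell types differed between the groups in the same libraries, and their part in the values of the class I genes was not tested.

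Markers of microglia and leukocytes were low. Of 12 microglia and leukocyte markers 2 passed the filter, Cd68 and P2ry12, and P2ry12 rose in NAC against control, though not without NAC 1. Cd68, at 1.15 and 1.01 CPM in control, 2.58 and 1.88 in PQ, and 1.30 and 1.09 in NAC, did not pass in PQ against control (log2 fold change 1.05, SE 0.42, edgeR adjusted p = 0.093), while limma called 1 of the 2 genes higher there. Cx3cr1 had 20 to 34 counts in every library. Ptprc, the pan-leukocyte marker, had at most 3 counts in a library, Aif1 and C1qa at most 1, and Tyrobp and C1qc were not listed in the tables. The summed FPKM of this list was 3.20 and 3.03 in control, 6.09 and 5.02 in PQ, and 6.01 and 4.81 in NAC, with P2ry12 the most abundant gene. Of 10 class II genes, 6 were not listed in the tables, H2-Aa had at most 1 count and Cd74 at most 3, and H2-DMa alone passed the filter, at a mean FPKM of 1.75. H2-DMa was higher in PQ than in NAC (log2 fold change 1.29, SE 0.34, edgeR adjusted p = 0.0064), a call lost without PQ 1 or NAC 2, and against control it passed in neither group. Of 8 endothelial and mural markers 0 passed the filter, though with no filter Dcn, at most 24 counts, passed as higher in PQ against control (a call lost without control 2 or PQ 1), and their summed FPKM was 0.82 and 0.91 in control, 2.21 and 1.43 in PQ, and 1.10 and 1.23 in NAC.

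Averaged over the 10 genes after standardizing each, the profile over the libraries was -0.44 and -0.21 in control, 0.91 and 0.81 in PQ, and -0.78 and -0.29 in NAC. Over these 6 libraries, Tap1 and Psme1 followed that profile most closely (Pearson r of 0.96 and 0.95), and Psmb9 and Psmb10 least (0.21 and 0.09). The 5 genes outside the set with the highest r were Tbc1d22a (0.9970), Sik1 (0.9960), Ccdc85b (0.9947), Kif3b (0.9943) and Zfp324 (0.9937). Sik1, a salt-inducible kinase, was at 12.9 and 13.2 CPM in control, 22.82 and 22.03 in PQ, and 11.1 and 13.3 in NAC. High r values are usual for the best matches among all genes tested over 6 libraries, and these are given as a description.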

How the data were processed

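Expression was measured by RNA-seq in 6 libraries, 2 per group, and grouped by the labels. The authors deposited 2 values per gene, an expected count, not normalized, and an FPKM value scaled by the authors for transcript length and library total. The submitters' processing notes name TopHat2 2.0.11 and Cufflinks 2.1.1 on mm9 for control 1 and PQ 1, and HISAT2 2.0.4, Bowtie2 2.2.5 and RSEM on mm10 for the other 4, although all 6 tables have the same columns, of the kind RSEM writes. The study's methods name only a stranded Illumina kit and sequencer, while 4 labels name BGISEQ-500. Whether counting used the strand is not given in the sources used here, so overlapping and antisense genes are uncertain. Genes absent from a table were taken as 0. Symbols came from the RefSeq gene table of GRCm38.p6, which matched 99.7% of identifiers.

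Expected counts were rounded and tested with edgeR 4.0.16 in R 4.3.3 (TMM, glmQLFit and glmQLFTest, all 6 libraries in a single fit, no covariates) on genes whose FPKM averaged 1 or more. P-values were adjusted by Benjamini-Hochberg over all genes tested, and a gene passed the test at an adjusted p under 0.05. The heavy chains were also summed before the fit. CPM values are TMM-normalized. Scripts were tested on simulated data. The totals of 9680436 to 10698241 counts set the precision, and a gene that never exceeded 3 counts was taken as undetectable.

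Alternatives were DESeq2's size factors, no filter, filterByExpr, DESeq2 1.42.0, sets inferred from the study's source data as a replicate block, the labelled protocol as a covariate, a fit restricted to the 4 libraries of a comparison, omission of each library in turn, limma 3.58.1 on log2(FPKM + 1) and log2(FPKM + 0.1), and at least a 1.5-fold change. A sum with 5 more class I entries, and fits with no filter that omit each library for 4 list genes below the filter, were added after the data were seen.

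All 10 genes were to be named. Of each other list, every gene that passed in PQ against control was to be named, or the most abundant gene where none did, together with the 5 genes whose profile was most like that of the set. Other named genes were chosen after their values were seen. Of the regulators and the neural stem markers, 1 gene each is not reported here, and counts, medians and sums over those 2 lists, and the robustness count over the calls of all lists, are left out with it. The set and the lists were chosen with earlier results of these data known.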

Additional observations from a re-analysis of the deposited data

How the results depend on the processing

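Of 450 values of the 10 genes under the alternatives, 398 kept their direction and their side of the threshold, 34 lost the call, 2 gained it and 16 changed sign. DESeq2's size factors, filterByExpr and no filter changed none of these calls or signs.

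Requiring at least 1.5-fold as well left 1 gene higher in PQ against control (Tap1), 0 higher and 0 lower in NAC against control, and 3 higher in PQ against NAC. Of all genes tested, 4.30% were higher and 3.43% lower at that threshold in the first comparison, 4.01% and 4.66% in the second, and 8.03% and 6.36% in the third. In NAC against control the count of genes higher was 0 with the DESeq2 Wald test, the replicate block, the labelled protocol as a covariate, and only the 4 libraries compared. The labels carry no replicate numbers, and the sets (control 1, PQ 1 and NAC 2, and control 2, PQ 2 and NAC 1) were inferred by matching values in the study's source data. The libraries of a set did not deviate together (r of -0.04, -0.07 and 0.06 over 11717 genes), so no pairing by these sets was seen. With the set as a replicate block, edgeR called 1798, 1804 and 3243 genes in the 3 comparisons, and 1 gene lower in NAC against control (H2-D1). Signs changed with the labelled protocol as a covariate for Psmb9 (-0.042 in NAC against control and 0.153 in PQ against NAC) and in limma for Psme1 in NAC against control (0.032 with a pseudocount of 1 and 0.033 with 0.1). The cause was not tested.

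With each library left out in turn, so that a lone library was assumed to vary like the other groups, the count of genes higher in PQ against control ran from 1 to 4 (all genes 866 to 2206). In NAC against control it ran from 0 to 1 higher and 0 to 2 lower (all genes 1286 to 2126). In PQ against NAC it ran from 4 to 7 higher (all genes 2343 to 4207), and the summed heavy chains from 0.23 to 0.37. Log2 fold changes that changed sign in PQ against control were those of Psmb9 (-0.11 to 0.35). For NAC against control they were those of B2m (-0.225 to 0.075), Tap2 (-0.086 to 0.152), Tapbp (-0.087 to 0.174), Psmb9 (-0.092 to 0.363) and Psme1 (-0.049 to 0.023). In PQ against NAC they were those of Psmb9 (-0.14 to 0.10) and Psmb10 (-0.429 to 0.013). None of these was past the threshold with all libraries.

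With 2 libraries a group, small differences are beyond detection, above all for Psmb9, whose counts were lowest. Class I heavy chain counts rest on how shared reads were divided.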
